A study of Mus musculus with 16 samples.

Results

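The insulin-like growth factor (IGF) genes described here are the ligand gene Igf1, the receptor genes Igf1r, Insr and Igf2r, and the binding protein genes Igfbp2 to Igfbp7. They are a chosen list of 10 among the 18194 genes measured, each followed through the probe sets (groups of short probes against 1 transcript) that the platform annotation assigns to it alone. These were 29 of the 45101 probe sets of the array. For each gene the brightest probe set, by its average over the 16 arrays, is given first and called the leading one. IGF1 and IGF2 are secreted factors that act through the IGF1 receptor, a tyrosine kinase closely related to the insulin receptor, and drive cell growth and survival. The IGF2 receptor, which also carries lysosomal enzymes, takes up IGF2 and removes it. The binding proteins hold IGFs outside the cell and, depending on the protein and the setting, block or deliver them.

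The series measured RNA of primary mouse neural crest stem cells (NCSCs), embryonic cells that can form peripheral glia, autonomic neurons and mesenchymal tissue. There were 4 arrays each of cells primed to glia (Glia), of cells primed to neurons (Autonomic), of cells primed to mesenchyme (Mesenchymal) and of cells that were not primed (NCSCs). All groups were labelled as primary neural crest material grown in an NCSC medium. The treatment note names instructive growth factors in the same words for every sample, NCSCs included. The sources used here name no factor, exposure time, strain or age. They also do not say whether the 4 replicates of a group came from separate cultures, so a p-value here reflects the spread among these arrays, which may be technical. In such mixed cell samples, fewer cells of a type and less RNA per cell cannot be told apart.

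The median intensity per array was 8.26 to 8.85 on the linear scale. Of 8 measured neural crest markers, 8 had a group mean above the median gene in each group. On the log2 scale their array means were 6.8 to 7.45 in Glia and 5.28 to 7.12 in Autonomic arrays. They were 7.28 to 7.77 in Mesenchymal and 6.59 to 7.55 in NCSCs arrays. The lowest was Autonomic replicate 1, where Sox10 was 4.3 and Foxd3 2.81, the latter below the median gene at 3.89. Of 6 autonomic neuron markers only 2 had a group mean above the median gene in Autonomic cells, and of 7 glial markers 3 did so in Glia cells. Mesenchyme and smooth muscle markers (8 measured, none called between groups) had array means of 5.47 to 6.0 in Glia, 4.97 to 6.47 in Autonomic, 4.63 to 6.57 in Mesenchymal and 3.78 to 5.60 in NCSCs arrays, so they were not particular to the Mesenchymal label. Ngfr, the crest receptor p75, was lower in Glia and in Autonomic than in NCSCs arrays by the test used below. It was the 1 of 8 crest markers called in each comparison, where 0.511% and 0.434% of all genes were called. The median difference of the 8 was 0.13 in Glia and -0.42 in Autonomic against NCSCs. Erbb3 went the other way in Glia, at 9.2 to 10.03 against 7.77 to 8.89 in NCSCs arrays, and was not called. In Mesenchymal arrays Ngfr was at 9.06 to 9.68. Against these arrays, 1 of 8 crest markers was called lower in Glia and in Autonomic (0.225% and 0.346% of all genes). Endothelial and blood markers (6 each) were below the median gene in every group, with array means of 1.81 to 2.67 on the log2 scale. Array means of 6 neural tube markers were 2.73 to 4.60 in Glia and 3.14 to 6.45 in Autonomic arrays. They were 3.61 to 6.11 in Mesenchymal and 4.51 to 7.43 in NCSCs arrays. The highest Autonomic array was replicate 1 (Pax6 9.54, Sox1 8.69), and the highest NCSCs array was replicate 4 (Pax6 9.49, Sox2 9.47). The highest Mesenchymal array was replicate 3 (Pax6 6.98, Sox1 9.41), which also had the highest array mean of mesenchyme and smooth muscle markers in its group, 6.57. These arrays are among those left out singly below. The log2 ratio of the 3' to the 5' probe sets of Gapdh, a measure of RNA integrity, also moved with the groups. It was 2.95 ± 0.39 in Glia, 2.85 ± 0.24 in Autonomic, 2.96 ± 0.22 in Mesenchymal and 2.35 ± 0.19 in NCSCs arrays (SD, n = 4 each). The same ratio for beta-actin was -0.17 ± 0.08 in Glia and -0.28 ± 0.15 in Mesenchymal arrays. It was -0.5 ± 0.28 in Autonomic and -0.53 ± 0.16 in NCSCs arrays, so these groups were alike by it and the 2 ratios did not move together. The part of these markers and of RNA integrity in the differences below was not tested, beyond fits with the Gapdh ratio as a covariate. A few arrays stood apart from their groups. Autonomic replicate 1 lay at -39.7 on the first principal component, against 28.9 to 57.3 for the other Autonomic arrays and -49.6 to -21.2 for NCSCs arrays. On the second component Glia replicate 4 lay at 54.8 and Autonomic replicate 4 at -78.5, against -23.2 to 13.8 for the other 14 arrays. Values with single arrays left out are given beside the main differences.

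No IGF gene passed the test in any of the 6 comparisons between groups. The test was limma's moderated test on log2 intensities with all 16 arrays in the fit, and a gene was called at a Benjamini-Hochberg adjusted p under 0.05 over all 18194 genes. The background of called genes was low in each comparison, and 0 of 10 is near the share over all genes. Called genes made up 0.511% in Glia against NCSCs, 0.434% in Autonomic against NCSCs, 0.022% in Mesenchymal against NCSCs, 0.011% in Glia against Autonomic, 0.225% in Glia against Mesenchymal and 0.346% in Autonomic against Mesenchymal. At an unadjusted limma p under 0.05, 2 of 10 IGF genes passed in Glia against NCSCs, 1 in Autonomic against NCSCs, 2 in Mesenchymal against NCSCs, 1 in Glia against Autonomic, 1 in Glia against Mesenchymal and 2 in Autonomic against Mesenchymal. Over all genes those shares were 9.91%, 9.8%, 7.7%, 6.24%, 7.05% and 8.23% in the same order. The median difference over the 10 genes was 0.28, 0.52, 0.17, -0.07, -0.15 and 0.02 in that order, against -0.01 to 0.01 over all genes. In a limma F test over the 4 groups, which called 0.599% of genes, the IGF genes had adjusted p-values of 0.136 (Igfbp5) to 0.922 (Igfbp7). The widest spread among group means was that of Igfbp5, followed by Igfbp3, Igfbp2, Igf1 and Igf2r, and these 5 genes are described first or in full within their class.

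The DNA just before the start sites of Igfbp5, Igfbp3 and Igf2r is shown because these genes had the lowest adjusted p-values of the 10 in the F test over the 4 groups (0.136 for Igfbp5, 0.319 for Igf2r and 0.375 for Igfbp3), although none passed it. The sequences are RefSeq's for mouse build GRCm38.p6, 5' to 3' on the strand of the gene, and each gives the 100 bases that end next to the table's start site. Capitals mark motifs searched for on both strands, whose letters were chosen after the sequences had been read. They were the TATA-like forms TATAAA (the usual form), then TATATA (which can share bases with it) and then TATTTAA (a variant), the GC box GGGCGG, which can overlap other copies of itself, and the E-box CACGTG.
Igfbp5, chr1:72874866-72874965, minus strand: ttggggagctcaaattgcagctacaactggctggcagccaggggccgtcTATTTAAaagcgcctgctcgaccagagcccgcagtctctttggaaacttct
Igfbp3, chr11:7213924-7214023, minus strand: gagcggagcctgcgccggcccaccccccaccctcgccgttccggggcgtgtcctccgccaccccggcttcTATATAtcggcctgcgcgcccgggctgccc
Igf2r, chr17:12769707-12769806, minus strand: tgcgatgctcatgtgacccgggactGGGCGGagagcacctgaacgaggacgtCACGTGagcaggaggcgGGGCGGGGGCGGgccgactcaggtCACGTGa
The start site used for Igfbp3 lies 1575 bases inside the annotated gene, and the other start sites are the 5' ends of their genes. A promoter entry was found for 9 of the 10 genes, all but Insr. Within 250 bases before the start, TATTTAA was found in Igfbp5 alone of these genes and in 4.2% of the 32851 promoter windows of the table. TATATA was found in Igfbp3 alone of them and in 5.2% of windows. TATAAA was found in Igfbp4 and Igfbp6 and in 12.4% of windows, GGGCGG in Igf1r, Igf2r, Igfbp2 and Igfbp7 and in 32.7%, and CACGTG in Igf2r and Igfbp2 and in 6.0%. In these windows the G and C content was 58.8% for Igfbp5, 73.2% for Igfbp3 and 69.2% for Igf2r, against a median of 52.4% over all windows.

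Igfbp5, a secreted binding protein that also associates with extracellular matrix, had log2 intensities of 5.96, 8.10, 8.87 and 8.35 in Glia arrays. They were 9.65, 10.32, 10.49 and 10.19 in Autonomic arrays and 7.96, 7.40, 8.19 and 7.38 in Mesenchymal arrays. In NCSCs arrays they were 7.59, 8.59, 9.43 and 9.97. Every Autonomic array was thus above every Glia and every Mesenchymal array, while NCSCs arrays ranged from the Mesenchymal level up to the Autonomic one. Glia minus Autonomic was -2.34 on the log2 scale (SE 0.57, 95% interval -3.56 to -1.12, 5.06-fold), with a limma adjusted p of 0.37. Autonomic minus Mesenchymal was 2.43 (SE 0.57, interval 1.21 to 3.65, 5.39-fold), with an adjusted p of 0.119. Igfbp5 was the 1 of 10 genes whose arrays did not overlap in each of these comparisons, where 2.96% and 4.17% of all genes did not overlap. Autonomic minus NCSCs was 1.27 (interval 0.05 to 2.49, adjusted p = 0.487) and the groups overlapped, and it was 0.83 without NCSCs replicate 1. Without Glia replicate 1, the lowest of all arrays, Glia minus Autonomic was -1.72 (adjusted p = 0.464). Without Autonomic replicate 1, the lowest of its group, Autonomic minus Mesenchymal was 2.60 (adjusted p = 0.0857), Glia minus Autonomic -2.51 and Autonomic minus NCSCs 1.44. Autonomic minus Mesenchymal passed the test under 2 of 24 alternatives, without Glia replicate 1 (adjusted p = 0.0274) and with only the 2 groups fitted (adjusted p = 0.0381), within a range of 0.0274 to 0.282.

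The other Igfbp5 probe set, whose name ends in _s_at and which may match further transcripts, gave the same group on top. It measured 5.82, 5.70, 7.44 and 4.30 in Glia arrays, and 9.25, 9.31, 10.67 and 10.51 in Autonomic arrays. The values were 7.78, 5.71, 8.32 and 5.19 in Mesenchymal arrays and 5.63, 6.61, 8.28 and 8.45 in NCSCs arrays. Here the Autonomic arrays lay above all arrays of the other 3 groups. Glia minus Autonomic was -4.12 (SE 0.83), with an adjusted p of 0.236 over all 45101 probe sets, and Autonomic minus NCSCs was 2.69 (SE 0.83, adjusted p = 0.285). Of the order Autonomic, NCSCs, Glia, Mesenchymal in the leading probe set, no pair of neighbours differed by the test. Glia minus Mesenchymal was 0.09, and its interval of -1.13 to 1.31 leaves room for a difference in either direction.

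**Figure D1:**
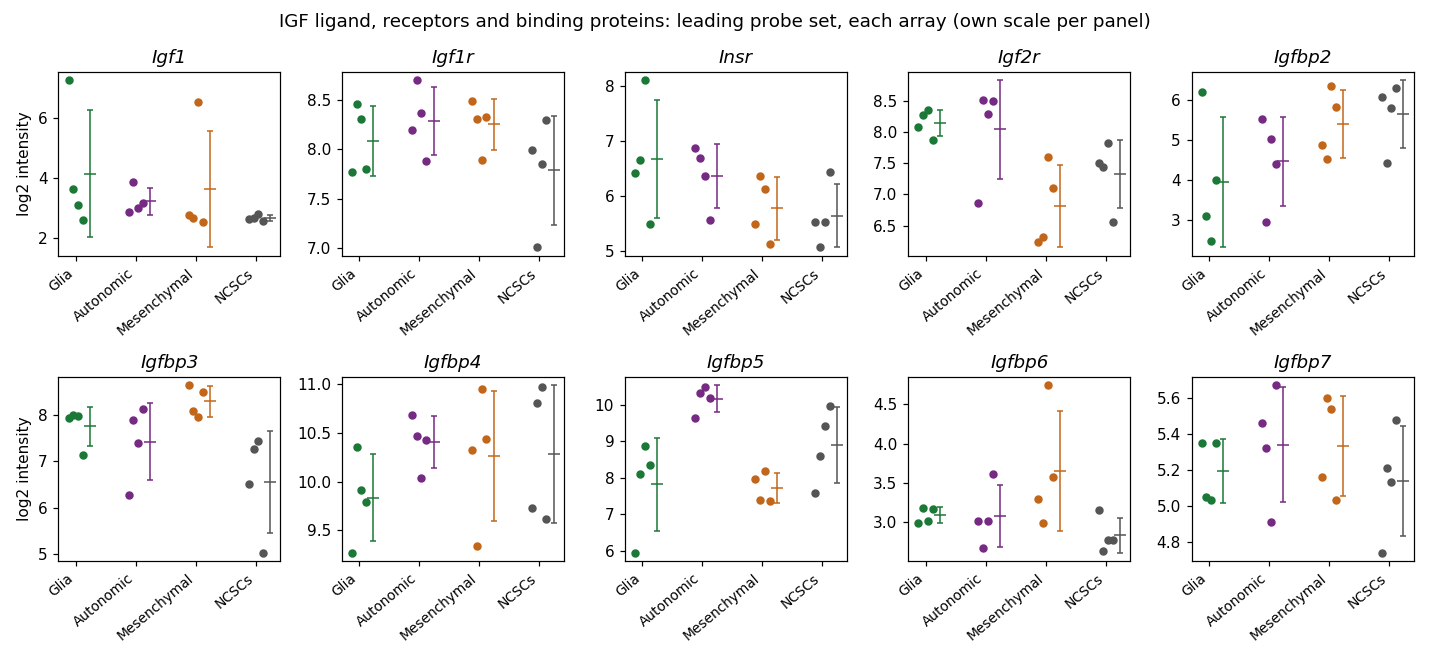
Log2 intensity (vertical axis, own scale in each panel) of the leading probe set of each of the 10 IGF genes in the 4 groups, with 1 point per array and the group mean ± SD beside the points (n = 4). The Igfbp5 points of Autonomic arrays, 9.65 to 10.49, lie above all Glia and Mesenchymal points, and single high arrays of 7.26 and 6.53 set the Igf1 means of Glia and Mesenchymal cells.

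Igfbp3, the main IGF carrier in blood and a gene also made by many mesenchymal cells, had log2 intensities of 8.64, 8.08, 7.96 and 8.50 in Mesenchymal arrays. They were 7.93, 8.0, 7.97 and 7.13 in Glia arrays and 6.28, 7.90, 7.40 and 8.13 in Autonomic arrays. In NCSCs arrays they were 6.50, 7.27, 7.45 and 5.03, so every Mesenchymal array was above every NCSCs array. Mesenchymal minus NCSCs was 1.73 (SE 0.49, interval 0.69 to 2.77, 3.32-fold), with a limma adjusted p of 0.357. It was the 1 of 10 genes whose arrays did not overlap in this comparison, against 5.69% of all genes. Glia minus NCSCs was 1.20 (interval 0.15 to 2.24, adjusted p = 0.409) and Autonomic minus NCSCs was 0.86 (interval -0.18 to 1.90, adjusted p = 0.61). Without NCSCs replicate 4, the lowest array, Mesenchymal minus NCSCs was 1.22, Glia minus NCSCs 0.69 and Autonomic minus NCSCs 0.35. Without Autonomic replicate 1, Autonomic minus NCSCs was 1.24. Among the primed groups no difference passed the test, and the order Mesenchymal, Glia, Autonomic was not the same in the other probe set, where their means were 6.08, 6.34 and 5.99 against 4.78 in NCSCs.

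Igfbp2, a binding protein common in embryonic and neural tissue, had its lower means in the Glia and Autonomic groups. Its log2 intensities were 6.19, 3.12, 2.49 and 4.00 in Glia arrays, and 5.51, 2.96, 5.02 and 4.39 in Autonomic arrays. They were 4.88, 4.53, 6.35 and 5.83 in Mesenchymal arrays and 6.07, 4.43, 5.80 and 6.29 in NCSCs arrays. Glia replicate 1 lay within the range of the NCSCs arrays, and the other Glia arrays were below all of them. Glia minus NCSCs was -1.70 (SE 0.75, interval -3.29 to -0.10, adjusted p = 0.464), and Autonomic minus NCSCs was -1.18 (interval -2.77 to 0.42, adjusted p = 0.666). Glia minus NCSCs was -2.44 without Glia replicate 1, -1.21 without Glia replicate 3 and -0.95 on the scale of log2 of the value plus 16. Autonomic minus NCSCs was -0.67 without Autonomic replicate 2, -1.52 without Autonomic replicate 1 and -0.75 on the scale with the offset. The residual SD of 1.14 was larger than that of 94.3% of genes. Only 1 probe set measured Igfbp2.

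Igfbp4, an inhibitory binding protein cut by the protease PAPP-A, had group means of 9.83 ± 0.44 in Glia, 10.41 ± 0.27 in Autonomic, 10.27 ± 0.67 in Mesenchymal and 10.28 ± 0.71 in NCSCs arrays (SD, n = 4 each), and all groups overlapped. Its 6 probe sets did not agree on the Autonomic group. Autonomic minus Mesenchymal was 0.15 in the leading one, 2.78 in 1 named _s_at (SE 0.84, adjusted p = 0.332 over all probe sets) and -1.68 in another (SE 0.43, adjusted p = 0.205). In the rest it was 0.19, 0.16 and 0.23, close to the leading one. The value of 2.78 rests on Autonomic replicates 1 and 3, at 11.70 and 10.26, against 7.77 and 7.58 in replicates 2 and 4 and 4.59 to 7.77 in Mesenchymal arrays. The direction of any Igfbp4 difference is therefore not settled.

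Igfbp6, which prefers IGF2 over IGF1, was dim. Its log2 intensities were 3.29, 2.99, 4.74 and 3.58 in Mesenchymal arrays, against 3.15, 2.64, 2.77 and 2.78 in NCSCs arrays, a difference of 0.82 (SE 0.31, interval 0.16 to 1.48, adjusted p = 0.537) in which Mesenchymal replicate 3 was the highest array. The difference was 0.45 without that array and 0.34 on the scale of log2 of the value plus 16. Glia and Autonomic arrays were at 2.99 to 3.18 and 2.67 to 3.62. The array medians were 3.05 to 3.15, so most arrays measured Igfbp6 near the level of an average probe set, and whether it exceeded background was not measured. Igfbp7, a related protein that binds IGFs weakly and is abundant in vessel walls, had the smallest spread of group means of the 10 genes in its leading probe set (0.20). Its second probe set read 6.78, 4.90, 6.14 and 4.55 in Glia arrays and 4.60, 6.66, 5.56 and 5.65 in Autonomic arrays. The Mesenchymal values were 3.78, 5.48, 6.11 and 5.03, against 4.59, 4.13, 3.76 and 3.13 in NCSCs arrays. In this probe set Autonomic minus NCSCs was 1.71 (SE 0.58, adjusted p = 0.368 over all probe sets). It was 0.20 in the leading one (interval -0.24 to 0.64) and 0.14 in the third, which was dim with a mean of 2.22. Glia minus NCSCs was 0.06 in the leading probe set, 1.69 in the second and -0.19 in the third. The Igfbp7 probe sets thus differ in size of difference and, for Glia minus NCSCs, in sign.

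**Figure D2:**
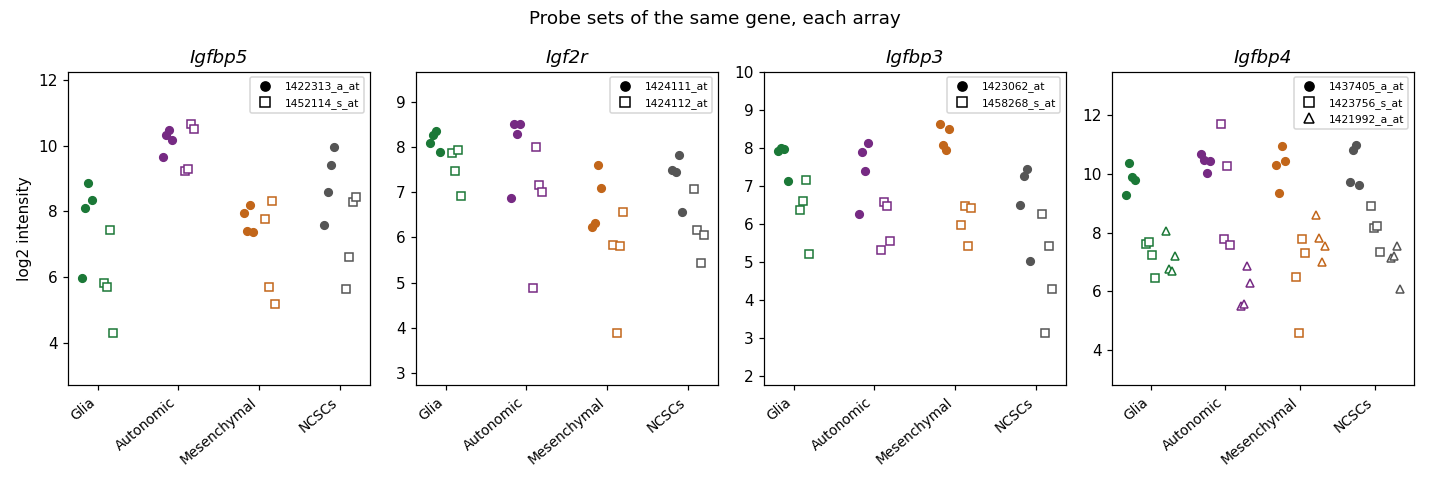
Log2 intensity (vertical axis) of 2 or 3 probe sets each for Igfbp5, Igf2r, Igfbp3 and Igfbp4, with 1 point per array in the 4 groups, filled circles for the leading probe set and open symbols for others. Both Igfbp5 probe sets have the Autonomic arrays on top, while the Igfbp4 probe sets shown place the Autonomic group differently. Igfbp4 probe sets closer to the leading one are not drawn.

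Among the receptors, Igf2r had the widest spread. Its log2 intensities were 8.09, 8.27, 8.35 and 7.88 in Glia arrays and 6.87, 8.51, 8.30 and 8.50 in Autonomic arrays. They were 6.23, 6.31, 7.60 and 7.10 in Mesenchymal arrays and 7.50, 7.44, 7.83 and 6.56 in NCSCs arrays. Glia arrays were above all Mesenchymal and all NCSCs arrays, and the Autonomic arrays other than replicate 1 were too. Glia minus Mesenchymal was 1.33 (SE 0.40, interval 0.49 to 2.18, 2.52-fold, limma adjusted p = 0.336), and 1.14 to 1.60 with single arrays left out. Autonomic minus Mesenchymal was 1.23 (SE 0.40, interval 0.39 to 2.08, adjusted p = 0.338), and without Autonomic replicate 1 it was 1.63 and passed the test (adjusted p = 0.045). This was 1 of 24 alternatives, within a range of adjusted p of 0.045 to 0.611. The same difference was 1.08 without Autonomic replicate 2 (adjusted p = 0.545) and 1.04 without Mesenchymal replicate 1. Glia minus NCSCs was 0.81 (interval -0.03 to 1.66, adjusted p = 0.518). Autonomic minus NCSCs was 0.71 (adjusted p = 0.606), 1.11 without Autonomic replicate 1 and 0.46 without NCSCs replicate 4. Igf2r was the 1 of 10 genes whose arrays did not overlap in Glia against Mesenchymal, where 4.55% of all genes did not, and in Glia against NCSCs, where 7.18% did not. In the latter comparison the nearest arrays were at 7.88 in Glia and 7.83 in NCSCs. The second Igf2r probe set gave 2.02 for Glia minus Mesenchymal (SE 0.64, adjusted p = 0.476 over all probe sets). It gave 1.23 for Autonomic minus Mesenchymal (SE 0.64, adjusted p = 0.704) and 1.36 for Glia minus NCSCs. In this probe set Glia and NCSCs arrays overlapped, with Glia replicate 4 at 6.92 and NCSCs replicate 1 at 7.08. A further probe set that names Igf2r together with the overlapping antisense gene Airn was left out.

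Igf1r, the main signalling receptor of the family, was measured well above the median gene in all groups by its leading probe set. Its group means were 8.08 ± 0.35 in Glia, 8.29 ± 0.34 in Autonomic, 8.25 ± 0.26 in Mesenchymal and 7.79 ± 0.55 in NCSCs arrays (SD, n = 4 each). The lowest array was NCSCs replicate 2 at 7.01, and the groups overlapped in every comparison. The differences from NCSCs were 0.30, 0.50 and 0.47, with intervals of -0.29 to 0.88, -0.08 to 1.08 and -0.12 to 1.05, for Glia, Autonomic and Mesenchymal arrays in that order. Without NCSCs replicate 2 they were 0.04, 0.24 and 0.21. The Glia difference was 0.17 without Glia replicate 2 and 0.47 without NCSCs replicate 4. The other Igf1r probe sets gave 0.40, 0.80, 0.46 and 0.58 for Glia minus NCSCs. In the same order they gave 0.47, 0.50, 0.49 and -0.14 for Autonomic minus NCSCs, and 0.55, -0.06, -0.27 and 0.55 for Mesenchymal minus NCSCs. The last of these probe sets was dim, with a mean of 2.68. The sign of the Autonomic and Mesenchymal differences thus depended on the probe set. Insr, the insulin receptor, had log2 intensities of 6.42, 6.66, 8.11 and 5.49 in Glia and 6.87, 6.69, 6.37 and 5.55 in Autonomic arrays. They were 5.48, 6.37, 6.13 and 5.12 in Mesenchymal and 5.53, 5.06, 5.53 and 6.43 in NCSCs arrays. Glia minus NCSCs was 1.03 (SE 0.49, interval -0.01 to 2.08, adjusted p = 0.511), -0.11 with the Gapdh ratio as a covariate and 0.55 without Glia replicate 3. Of the other Insr probe sets, 1 gave 0.85 and 1 gave -0.38 for this difference, so neither its size nor its sign is settled.

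**Figure D3:**
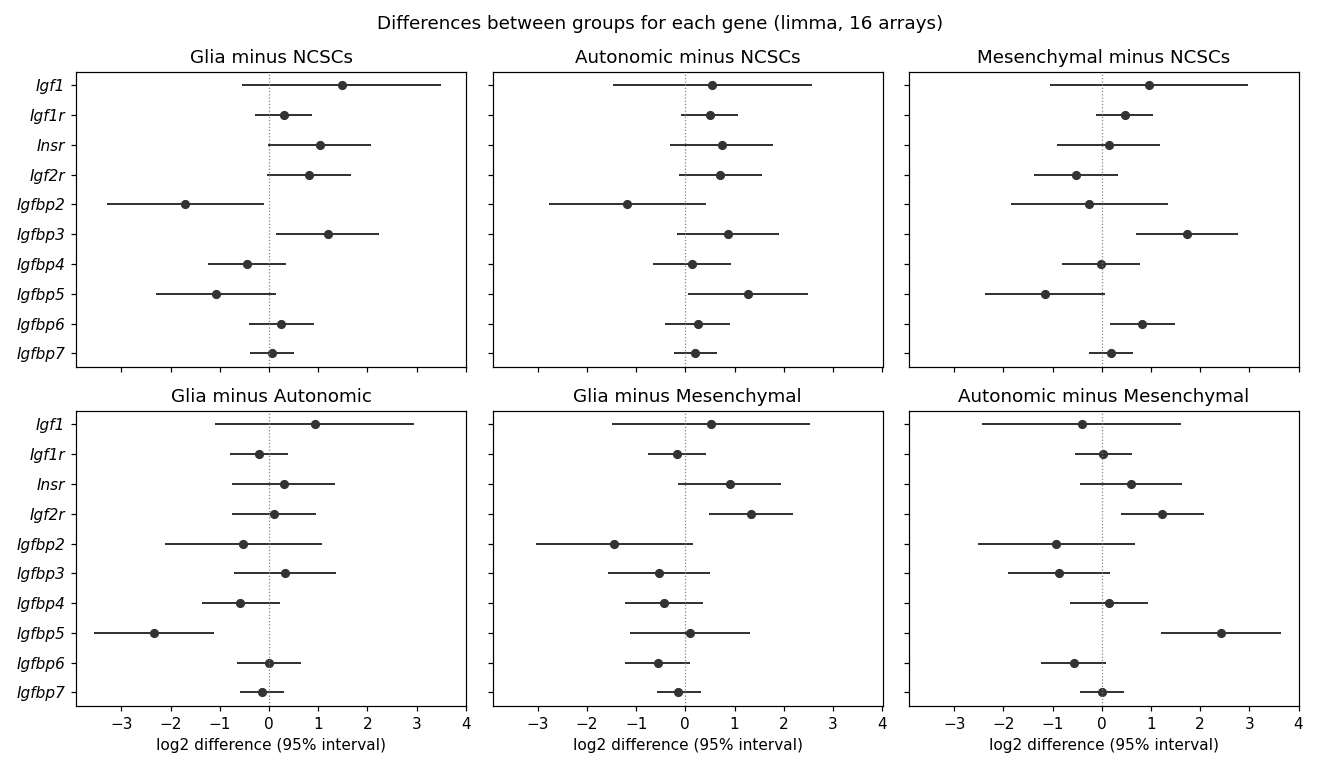
Log2 difference between groups (horizontal axis, first named minus second) for the 10 IGF genes in the 6 comparisons, from limma with all 16 arrays, where lines are 95% intervals before correction for multiple tests. No gene passed the adjusted test, and the farthest from 0 is Igfbp5 in Autonomic minus Mesenchymal, at 2.43.

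Igf1, the ligand, was dim in most arrays, with single exceptions. Its log2 intensities were 7.26, 3.63, 3.09 and 2.60 in Glia and 2.86, 3.85, 2.99 and 3.17 in Autonomic arrays. They were 2.78, 2.68, 6.53 and 2.52 in Mesenchymal and 2.63, 2.65, 2.81 and 2.58 in NCSCs arrays. Only Glia replicate 1 and Mesenchymal replicate 3 were above 4, and the remaining arrays were near the array medians or below them. Igf1 was the 1 of 10 genes whose Autonomic and NCSCs arrays did not overlap, against 5.53% of all genes, but the difference was 0.55 (interval -1.47 to 2.57, adjusted p = 0.914) at a level not shown to exceed background. It was -0.43 with the Gapdh ratio as a covariate, 0.34 without Autonomic replicate 2 and 0.19 on the scale of log2 of the value plus 16. Glia minus NCSCs was 1.48 (interval -0.54 to 3.50, adjusted p = 0.67), 0.44 without Glia replicate 1, 0.31 with the Gapdh ratio and 0.84 on the scale with the offset. The other 3 Igf1 probe sets had means of 1.32 to 1.64, and of these 1 was high in Glia replicate 1, at 3.30.

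Igf2, the second ligand and the one that Igf2r clears, is not among the 10 genes. Its log2 intensities were 9.24, 8.37, 9.18 and 6.11 in Glia and 4.24, 8.21, 7.89 and 9.98 in Autonomic arrays. They were 8.95, 9.65, 9.80 and 8.62 in Mesenchymal and 8.23, 8.86, 10.25 and 7.80 in NCSCs arrays. Autonomic replicate 1 was the lowest of all arrays, and no difference passed the test. Autonomic minus Mesenchymal was -1.68 (interval -3.81 to 0.45, adjusted p = 0.748), and -0.56 without that array.

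Of 56 other measured genes of IGF binding, receptors, proteolysis and signalling, 1 rose in Glia against NCSCs and 1 fell in Autonomic against Mesenchymal. In the other 4 comparisons none passed. Over all genes 0.511% were called in Glia against NCSCs and 0.346% in Autonomic against Mesenchymal. Single calls are therefore not read as a result about these lists. The median differences of the 56 genes were between -0.14 and 0.16 in the 6 comparisons, against -0.01 to 0.01 over all genes. Adamts1, a secreted metalloprotease of the matrix, had log2 intensities of 9.60, 10.96, 10.79 and 10.29 in Glia arrays, against 8.51, 7.76, 8.62 and 8.88 in NCSCs arrays, and the groups did not overlap. It rose by 1.96 (SE 0.35, 3.9-fold, limma adjusted p = 0.0296). The call was lost under 9 of 24 alternatives, namely the fit of only the 2 groups, the fit with the Gapdh ratio (adjusted p = 0.0852) and the fits without any single NCSCs array or without Glia replicate 2, 3 or 4, with differences of 1.74 to 2.30 throughout. Gab1, an adaptor that couples receptor tyrosine kinases to PI3-kinase, had 4.90, 4.45, 5.15 and 5.53 in Autonomic arrays, against 7.36, 6.74, 6.23 and 6.81 in Mesenchymal arrays. The log2 difference was -1.78 (SE 0.33, limma adjusted p = 0.0292). This call was lost under 8 of 24 alternatives, namely the replicate block (adjusted p = 0.0763), the fit of only the 2 groups, the Gapdh ratio and the fits without Autonomic replicate 2 or 3 or Mesenchymal replicate 1, 2 or 4. Over all 24 alternatives the difference stayed between -1.96 and -1.38. None of 17 measured PI3-kinase, AKT and mTOR genes and none of 9 FOXO factors and targets passed in any of the 6 comparisons. Gab1 was the 1 of 11 receptor substrates and adaptors to pass, and Adamts1 the 1 of 11 binding protein proteases and their inhibitors.

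The genes whose pattern over the 16 arrays was closest to 3 of the IGF genes were found by the root mean square difference after each gene was centred on its own mean. For Igfbp5, which varied by a root mean square of 1.24 about its mean, the closest were Nsmce3 (0.74), Atrn (0.81) and Ncam1 (0.83). For Igfbp3, at 0.90 about its mean, they were Tln1 (0.51), Slitrk6 (0.52) and Gng11 (0.55). For Igfbp2, at 1.21, they were Tspan13 (0.73), Dna2 (0.74) and Hmgcs1 (0.76). These were picked as the nearest of all genes, and each distance is a large share of the gene's own variation.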

How the data were processed

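Biotin-labelled cRNA from total RNA was hybridised, per the labels' protocols. The deposited values are probe set intensities, which the authors summarised with RMA per the submitters' processing notes (version not given in the sources used here). Values run from 1.49 to 31600 and were read as linear, so log2 was taken with no offset and nothing was normalized again. Of 45101 probe sets, 34958 named 1 gene, 932 several and 9211 none here. Symbols were updated by Entrez identifier to the GRCm38.p6 table (99.4% matched), and the probe set with the highest mean stood for its gene. A group-means model over 16 arrays was fitted with limma 3.58.1 (lmFit, eBayes) in R 4.3.3, with two-sided p-values adjusted over 18194 genes and intervals unadjusted. Arrays have no read depth, and 4 per group limit the precision. Scripts were tested on simulated data. The IGF genes, lists and alternatives were chosen with earlier results of these data known. Named genes are all 10 IGF genes, Igf2, called pathway genes and the 3 nearest patterns of the 3 widest-ranging IGF genes; the motifs and the every-probe-set test were added later. The sources used here do not say whether same-numbered arrays were paired, and the main fit did not pair them.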

Additional observations from a re-analysis of the deposited data

Results flagged for a closer look

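Among 40 groups of 4 arrays (10 IGF genes in 4 groups), 3 had an array that stood apart from the other 3 of its group by Dixon's criterion, which sets the gap to the nearest array against the group's range. Chance alone flags about 1 in 20 groups. Igf1 was 6.53 in Mesenchymal replicate 3, against 2.52 to 2.78 in the other Mesenchymal arrays. Igf2r was 6.87 in Autonomic replicate 1, against 8.30 to 8.51 in the others. Igfbp3 was 7.13 in Glia replicate 4, against 7.93 to 8.0 in the others. Values are log2 intensities of the leading probe sets.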

How the results depend on the processing

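The 24 other settings (replicate block, 2 other normalizations, a filter on dim genes, log2 of the value plus 16, no _s_at or _x_at probe sets, fits of only the 2 groups compared, the Gapdh ratio as a covariate, and each array left out) gave 1428 values for the 60 differences of IGF genes. Many of these values could not change direction. Leaving out an array of a group not compared, the replicate block, the filter on dim genes and the fits of only the 2 groups leave a difference as it was. Of the 60 differences, 20 changed sign under some setting. Of the 1428 values, 1381 kept direction and side of the threshold, 44 changed sign without passing and 3 passed. Those 3 are in Autonomic against Mesenchymal, where the count of called IGF genes was 1 in place of 0: Igfbp5 when only those groups were fitted (2.43, adjusted p = 0.0381) and without Glia replicate 1 (2.43, adjusted p = 0.0274), and Igf2r without Autonomic replicate 1 (1.63, adjusted p = 0.045). In the other 5 comparisons no IGF gene passed under any of these settings, nor did any of the 29 probe sets when each was tested on its own, a test chosen after seeing the data. The cause of these changes was not tested.

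Counts over all genes moved more. With single arrays left out they were 25 to 168 (93 with all arrays) in Glia against NCSCs, 31 to 237 (79) in Autonomic against NCSCs, 0 to 3 (4) in Mesenchymal against NCSCs, 2 to 7 (2) in Glia against Autonomic, 14 to 68 (41) in Glia against Mesenchymal and 36 to 141 (63) in Autonomic against Mesenchymal, each highest without Autonomic replicate 1 except in Mesenchymal against NCSCs. With only the compared groups fitted, counts were 60 in Glia against NCSCs, 17 in Autonomic against NCSCs, 0 in Mesenchymal against NCSCs, 0 in Glia against Autonomic and 26 in Autonomic against Mesenchymal. With the Gapdh ratio as a covariate they were 30, 33 and 1 in Glia, Autonomic and Mesenchymal against NCSCs. The replicate block gave 52 in Glia against NCSCs and 22 in Glia against Mesenchymal; same-numbered arrays of different groups had correlations of -0.07 to 0.06 in their deviations from group means, and 2 of 16 arrays correlated best with their own number. In Mesenchymal against NCSCs the count was 6 with the replicate block, 5 with the filter on dim genes, 2 after quantile normalization, 1 after median centring and 0 with the offset of 16. With every probe set tested, counts were 124 in Autonomic against NCSCs, 0 in Mesenchymal against NCSCs and 5 in Glia against Autonomic. Igf1 and Igfbp6, at or below the level of the median gene, were left out by the filter on dim genes, and the size of their differences is rough.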
